A study of Mus musculus with 6 samples.

Results

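Liver tumours of Hras12V transgenic mice were compared with the normal liver of wild-type C57BL/6 mice, within each sex, by RNA sequencing. The comparison used 4 of the 6 libraries of the series: a tumour and a normal library from males at 9 months of age, and a tumour and a normal library from females at 15 months. The remaining 2 libraries were from precancerous liver, the non-tumour tissue next to the tumours of Hras12V mice, in males at 9 months and in females at 15 months. All mice were of the C57BL/6 strain and untreated, and the tumours were labelled as hepatocellular carcinoma. Genotype and tissue state changed together, since normal liver came only from wild-type mice and tumour only from transgenic mice. Sex and age cannot be told apart, since every male library was from 9 months and every female library from 15 months. The sources used here do not give the promoter that drives the transgene. Nor do they give the number of mice behind a library, or whether both tissues of transgenic mice were taken from 1 animal. Of 34745 genes in the table, 11435 reached 1 FPKM (a level of fragments corrected for gene length and sequencing depth) in at least 2 of the 6 libraries and were tested.

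Hras encodes a small GTPase that relays growth factor signals through the RAF, MEK and ERK kinases, and the Hras12V form stays in its active, GTP-bound state. ERK activity induces growth genes and also its own inhibitors, the DUSP phosphatases and the Sprouty and SPRED proteins, so their transcripts serve as a readout of the pathway. The adult hepatocyte makes plasma proteins, bile acids, urea and glucose and detoxifies foreign compounds, and liver tumours commonly lose parts of this programme and express genes of the fetal liver.

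Library totals ran from 5996585 to 7347064 counts in the males and from 15047022 to 18434508 in the females, and scaling factors between libraries ran from 0.957 to 1.06. Values after ± are standard errors (SE) of the fitted log2 fold change. There was 1 library for each tissue and sex, so a p-value measures the spread left after the tissue and sex terms among these 6 libraries. Hepatocyte markers were high in all 6: Alb was at least 22399 FPKM in each and Hnf4a ran from 76.4 to 94.3. Pairs of values below are given in the order male, female. The normal libraries stood apart in some genes. The male normal library held 2002 FPKM of Saa1, a serum amyloid of the acute phase, against 32.8 in the female normal library, and only 14.2 FPKM of the metallothionein Mt1 against 165 to 430 in the others. The female normal library held 5.19 FPKM of the hepatocyte transcription factor Cebpa against 31.8 to 54.2 in the others, and 404 FPKM of the immunoglobulin light chain Igkc against 12.3 to 47.3.

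Tumour and normal liver differed in a large share of the transcriptome, in both the male and the female pair. With edgeR's quasi-likelihood test over all 6 libraries, sex as a block and an adjusted p under 0.05, 3649 genes were called, 31.9% of those tested. Of these, 1887 were higher in tumour (16.5%) and 1762 were lower (15.4%). The filter was uneven: 358 of the 1887 had passed it through the tumour libraries alone, and 18 of the 1762 through the normal libraries alone. The median log2 fold change was 1.16 among genes called higher and -0.96 among genes called lower, against 0.0036 over all genes tested. At least 8-fold changes were called for 305 genes higher and 135 lower. Of the 3649 called genes, 3636 changed in the same direction in both sexes, which the call itself favours. The number rests on how the spread was estimated: the fit to the 4 tumour and normal libraries alone called 2310 genes (20.2%), 1263 higher (11%) and 1047 lower (9.16%), of which 2266 were also called with all 6. Without the normal female library the count was 1785 and without the normal male library 2264, and it was 2291 and 2526 without the female and the male tumour.

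Seen pair by pair, with no test, the male tumour exceeded male normal liver by 2-fold or more on the log2(FPKM + 1) scale in 958 genes (8.38%) and was lower in 683 (5.97%). In the female pair 848 were higher (7.42%) and 797 lower (6.97%). Both pairs shared 610 genes higher (5.33%) and 452 lower (3.95%), while 36 genes moved 2-fold in opposite directions (0.315%). Across genes, which are not independent replicates, the male and female differences had a Pearson r of 0.729. The opposite genes included female-type P450s such as Cyp2c69 (0.471 and 339 FPKM in male and female normal liver, 7.46 and 4.14 in the tumours) and the male-type Serpina1e (5466 and 16.9, then 686 and 445).

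**Figure D1:**
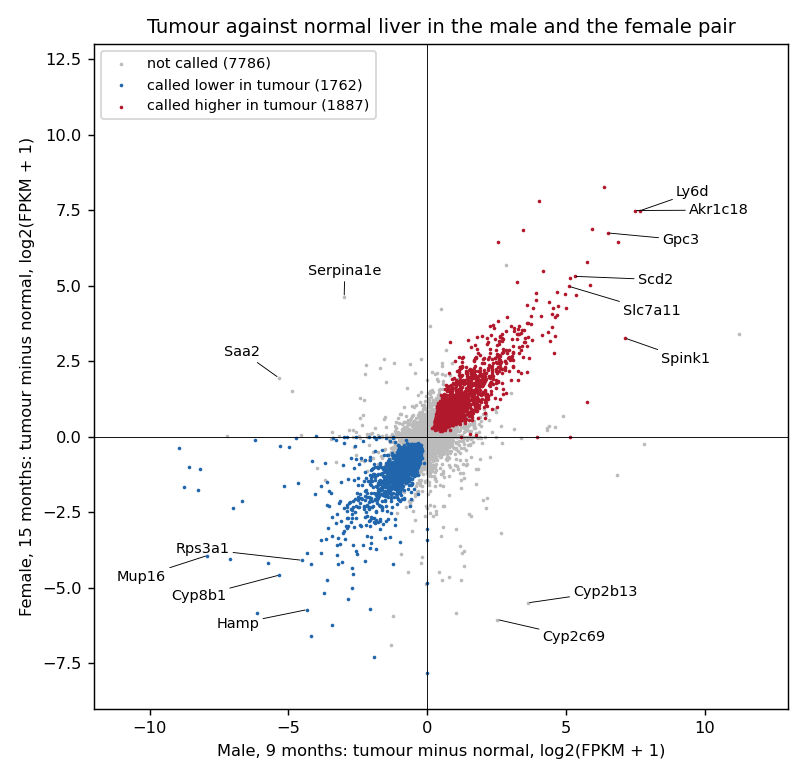
Difference between tumour and normal liver for 11435 genes, on the log2(FPKM + 1) scale, in the male pair at 9 months (horizontal) and in the female pair at 15 months (vertical), 1 library a side. Most of the 1887 genes called higher lie at the upper right and most of the 1762 called lower at the lower left, and uncalled genes in grey include those that moved in opposite directions, such as Cyp2c69 and Serpina1e.

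**Figure D2:**
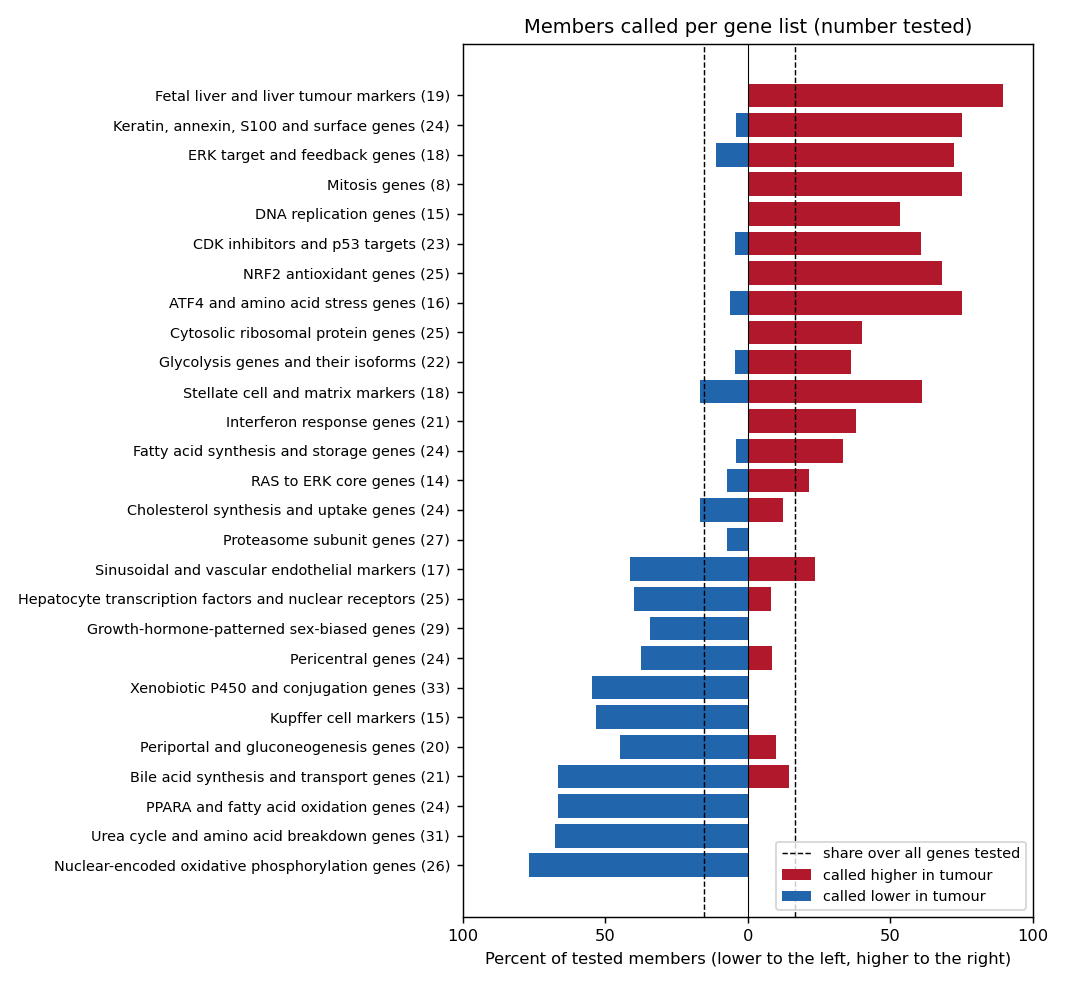
Share of the tested members of 27 gene lists called higher (right, red) or lower (left, blue) in tumour by edgeR's quasi-likelihood test, with the number tested in parentheses and the share over all genes tested as dashed lines (16.5% higher, 15.4% lower). Fetal and tumour markers, ERK targets, mitosis, NRF2 and ATF4 genes lie beyond the line on the right, and respiratory chain, urea cycle, bile acid and fatty acid oxidation genes on the left.

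Ranked by the smaller of the male and female differences, the 15 largest rises among called genes with a level of at least 5 FPKM included Ly6d, Akr1c18, Gpc3, Tspan8, Tff3, Afp, Cbr3, Scd2, Pnpla5, Igfbp1, Slc7a11, Gldn, Erich4 and Cd63. Tspan8, a tetraspanin of gut and bile duct epithelium, measured 0.628 and 0.426 FPKM in normal and 191 and 123 in tumour liver (log2 fold change 8.403 ± 1.27, adjusted p = 0.0107). Tff3, a trefoil peptide that protects mucosa, had no read in female normal liver and measured 303 and 309.96 FPKM in the tumours, at least 899-fold higher in the female (adjusted p = 0.00938). Erich4, which encodes a glutamate-rich protein, had no read in either normal library and reached 19.7 and 20.96 FPKM, at least 35.9-fold and 112-fold higher (adjusted p = 0.00441). Each of these 3 genes was higher in both tumours than in any other library. The 15 largest falls were Sult2a8, Cyp8b1, Hamp, Cyp2c54, Ces3b, Aox3, Rps3a1, Mup15, Mup16, Cyp2c29, Car3, Ces3a, Cyp2c50, Bhmt and Bhmt-ps1. Sult2a8, a liver sulfotransferase, measured 319 and 104 FPKM in normal and 3.57 and 0.841 in tumour liver (log2 fold change -6.698 ± 0.65, adjusted p = 0.00391). Car3, a carbonic anhydrase of liver, fat and muscle, measured 652 and 389.6 FPKM in normal and 45.3 and 26.05 in tumour liver (log2 fold change -3.91 ± 0.19, adjusted p = 0.00192). Ces3b, a carboxylesterase, measured 118 and 72.1 FPKM in normal and 5.58 and 2.99 in tumour liver (log2 fold change -4.52 ± 0.16, adjusted p = 0.00192). Precancerous liver held 63.9 and 67.995 FPKM of Sult2a8, 452 and 312 of Car3 and 70.7 and 53.2 of Ces3b. Cyp2c, Ces3 and Mup genes lie in families of near-identical copies.

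Genes of fetal liver and of liver tumours rose. Of 24 such genes 19 were tested, 17 were called higher and 0 lower, with a median log2 fold change of 6.15. Of all genes tested 16.5% were called higher. The list was written with earlier results of these data known, so its count and median may follow in part from that choice. Of the 17, 5 had passed the filter on low values through the tumour libraries alone. Afp, alpha-fetoprotein, the main plasma protein of the fetus and a serum marker of hepatocellular carcinoma (chr5:90490737-90508907, GRCm38), measured 0.547 and 0.0663 FPKM in male and female normal liver and 93.1 and 125 in the tumours (log2 fold change 8.63 ± 1.46, adjusted p = 0.0144). Gpc3, a cell surface heparan sulfate proteoglycan used in the pathology of liver cancer (chrX:52272426-52613950), measured 0.107 and 0.109 in normal liver and 99.5 and 118 in tumour (log2 fold change 10.46 ± 1.25, adjusted p = 0.00402). Neither gene reached 1 FPKM in either normal library and both exceeded 90 FPKM in each tumour. Precancerous liver held 2.71 FPKM of Gpc3 in the male and 36.7 in the female, and 1.16 and 7.19 of Afp. Where a normal library holds few reads, the fitted fold change depends on the small count that edgeR adds: male normal liver held 2 reads of Gpc3, and the male counts per library total gave a ratio of tumour to normal with an exact 95% interval that covers counting error only (ratio 926, interval 256 to 7654).

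H19, an imprinted long non-coding RNA of fetal liver (chr7:142575529-142578143), had 0 and 10 reads in the normal libraries and measured 15.1 and 244 FPKM in the tumours, at least 172-fold higher in the male against 3 reads (adjusted p = 0.00192). Both tumours stood above all other libraries, the female by far the most. Igf2, its neighbour and a fetal growth factor, did not reach the filter, with 0.683 and 6.04 FPKM in the tumours and at most 0.141 elsewhere. Ly6d, a GPI-anchored surface protein (chr15:74762056-74763620), rose from 0.448 and 2.89 to 291 and 694 FPKM (log2 fold change 8.47 ± 0.57, adjusted p = 0.00222), on 2 reads in the male normal library (ratio 648, interval 179 to 5356). Spink1, a secreted trypsin inhibitor, had no read in either normal library and measured 138 and 8.61 FPKM in tumour, at least 117-fold higher in the male and at least 21.4-fold in the female against 3 reads a library (adjusted p = 0.0202). Cdh17, a cadherin of the intestine, measured 0 and 0.0236 FPKM in normal liver and 14.1 and 22.5 in tumour, at least 135-fold higher in the male (adjusted p = 0.00192). H19, Ly6d, Spink1 and Cdh17 did not overlap between tumour and normal liver, which the choice of called genes favours. Spink1 differed widely between the tumours themselves. Akr1c18, an aldo-keto reductase that inactivates progesterone, rose from 0.252 and 0.0858 to 220.5 and 194 (log2 fold change 10.55 ± 0.71, adjusted p = 0.00192). It had 2 and 2 normal reads (ratio 873, interval 241 to 7216 in the male, ratio 2263, interval 626 to 18693 in the female). Epcam, a progenitor and bile duct surface protein, did not pass the test (0.572 and 0.666 FPKM in normal liver, 1.33 and 1.62 in tumour, adjusted p = 0.0525).

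**Figure D3:**
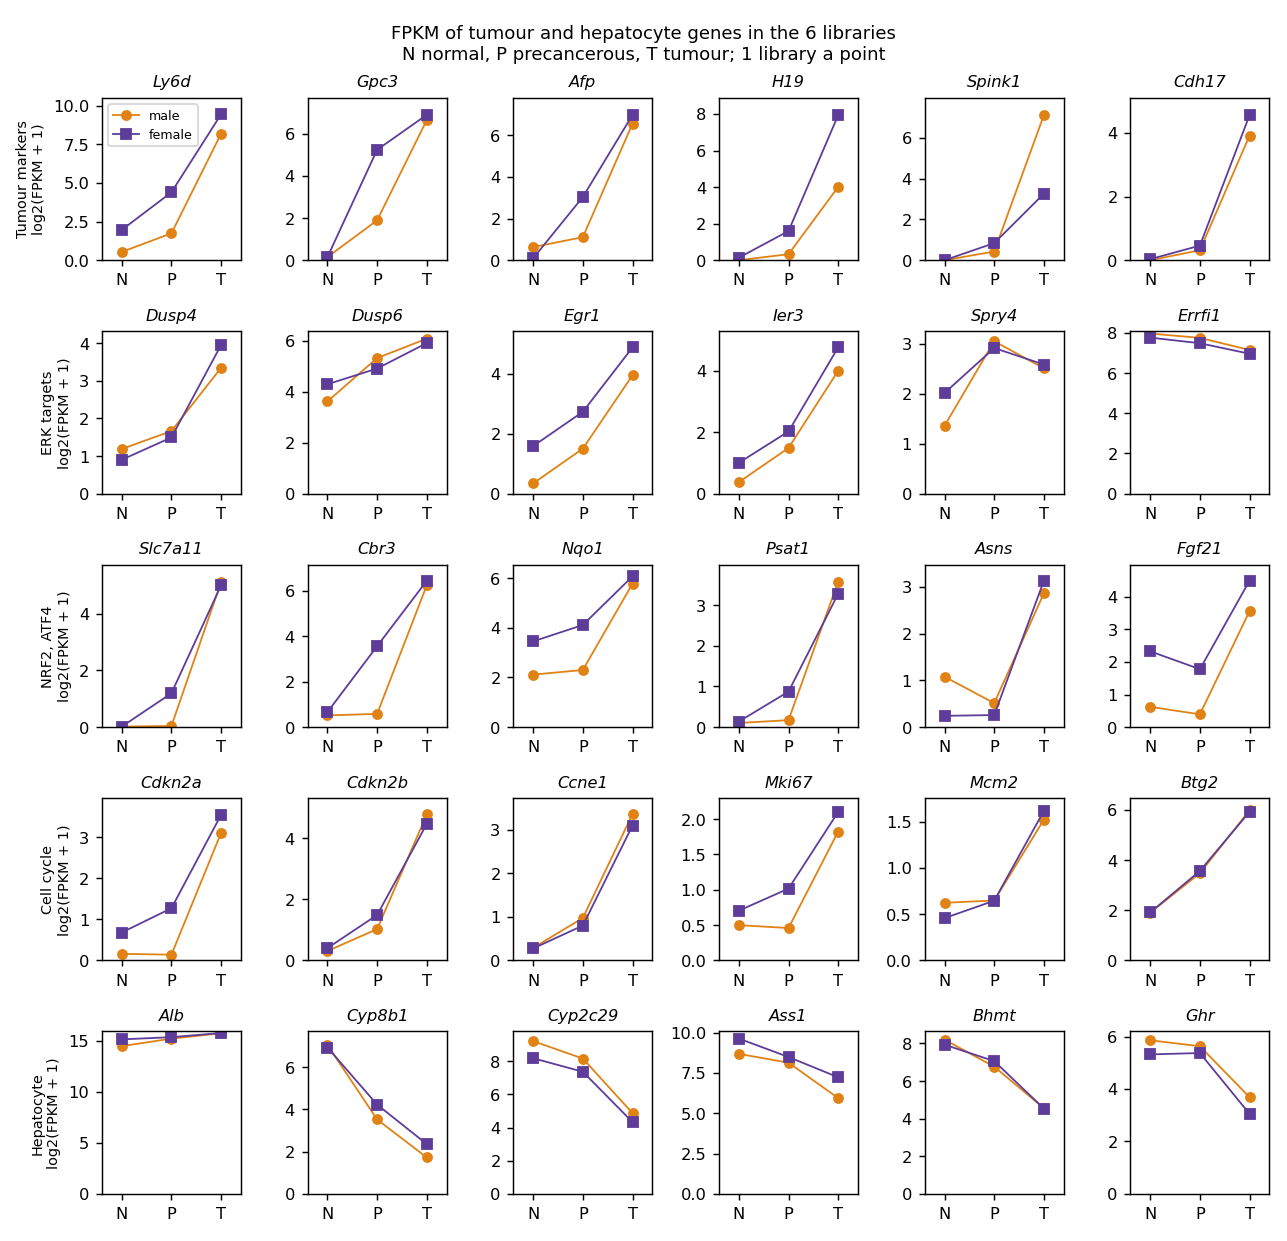
Level of 30 genes on the log2(FPKM + 1) scale in normal (N), precancerous (P) and tumour (T) liver, males as orange circles and females as purple squares, 1 library a point and each panel with its own axis starting at 0. In both sexes the tumour markers, NRF2, ATF4 and cell cycle genes are highest in tumour, Errfi1 and the hepatocyte genes other than Alb are lowest in tumour, and Spry4 is highest in precancerous liver.

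Genes of cell adhesion, the cytoskeleton and membrane remodelling moved the same way. Of 24 tested keratin, annexin, S100, galectin and cadherin genes, 18 were called higher and 1, the galectin Lgals4, lower. Of the 18, 4 had passed the filter through the tumour libraries alone. Cd63, a tetraspanin of late endosomes and exosomes, rose from 2.91 and 4.12 to 99.9 and 101 FPKM (log2 fold change 4.83 ± 0.27, adjusted p = 0.00192). Anxa2, an annexin that binds membrane phospholipid and actin, rose from 2.69 and 3.35 to 35.5 and 33.3 (log2 fold change 3.49 ± 0.21, adjusted p = 0.00212). Cdh1, E-cadherin, the epithelial adhesion molecule, rose from 6.15 and 1.85 to 32.9 and 35.1 (log2 fold change 3.33 ± 0.48, adjusted p = 0.00946). For Cd63 and Anxa2 the tumours of both sexes agreed to within a few FPKM. No tumour value overlapped a normal one, which the choice of called genes favours. The bile duct keratins Krt7 and Krt19 did not reach the filter and stayed at or under 1.07 FPKM in every library. Krt18, a keratin of hepatocytes, rose from 107 and 117 to 250.2 and 417 (log2 fold change 1.497 ± 0.18, adjusted p = 0.00662). Ankrd1, a target of the YAP coactivator, rose from 0.189 and 0.128 to 4.01 and 3.04 (log2 fold change 4.43 ± 0.32, adjusted p = 0.00223; 2 reads in male normal liver, ratio 21.2, interval 5.59 to 179.9). Yap1 itself measured 8.23 and 6.54 FPKM in normal and 9.46 and 8.297 in tumour liver (adjusted p = 0.174).

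Transcripts of the RAS to ERK cascade were called at about the share over all genes tested, and 13 of 18 tested targets of ERK rose. Hras, the gene of the transgene's product, measured 3.28 and 2.05 FPKM in male and female normal liver, 3.27 and 2.22 in precancerous liver and 3.496 and 2.84 in tumour (log2 fold change 0.25 ± 0.15, adjusted p = 0.246). The sources used here do not say whether reads of the transgene count under mouse Hras, so this value does not check the genotype labels. Of 14 genes of the cascade, 3 were called higher and 1 lower, and 1 and 0 with the 4 libraries alone. Mapk3, which encodes the kinase ERK1, rose from 5.59 and 11.7 to 10.8 and 21.1 FPKM (log2 fold change 0.87 ± 0.13, adjusted p = 0.00944). Nf1, a GTPase-activating protein that switches RAS off, was called higher with a log2 fold change of 0.58, and Sos1, an exchange factor that loads RAS with GTP, was called lower at -0.41. The fit to 4 libraries gave adjusted p of 0.0783 and 0.114.

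Of 18 tested ERK target and feedback genes, 13 were called higher and 2 lower, with a median log2 fold change of 1.4. Of the 13, 3 had passed the filter through the tumour libraries alone. Dusp6, the cytoplasmic phosphatase that inactivates ERK, rose from 11.3 and 18.7 to 67.1 and 59.4 FPKM, with 39.1 and 29.2 in precancerous liver (log2 fold change 2.04 ± 0.31, adjusted p = 0.0105). Dusp4, a nuclear phosphatase of ERK and related kinases, rose from 1.28 and 0.868 to 9.19 and 14.5 (log2 fold change 3.47 ± 0.36, adjusted p = 0.00438). Egr1, an immediate early transcription factor, rose from 0.266 and 2.003 to 14.4 and 28.4 (log2 fold change 4.601 ± 0.49, adjusted p = 0.00481). Ier3, another immediate early gene, rose from 0.295 and 1.002 to 14.9 and 25.996 (log2 fold change 4.905 ± 0.28, adjusted p = 0.00194; 2 reads in male normal liver, ratio 50.6, interval 13.7 to 422). For each of these 4 genes both tumours were above both precancerous libraries, which were above the normal library of the same sex. Myc, a growth-promoting transcription factor, rose about as much in both sexes, from 0.588 and 0.764 to 1.47 and 1.47 (log2 fold change 1.09 ± 0.16, adjusted p = 0.0106). Errfi1, an inhibitor of the EGF receptor, and Phlda1 were the members called lower, Errfi1 from 248 and 216 to 140.4 and 123 (log2 fold change -0.85 ± 0.17, adjusted p = 0.0212, adjusted p = 0.0752 with 4 libraries). Ccnd1, cyclin D1, measured 5.51 and 32.2 FPKM in normal and 41.4 and 27.7 in tumour liver and was not called (adjusted p = 0.233). Of the exonic sequence of Ccnd1 23.4%, and of Phlda1 33%, lies under an exon of a gene on the other strand, so their values are less certain.

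Of the EGF receptor ligands, Btc, Tgfa, Areg and Hbegf rose, and the receptor did not pass the test. Btc, betacellulin, measured 0.352 and 0.269 FPKM in normal liver and 3.73 and 4.14 in tumour (log2 fold change 3.66 ± 0.204, adjusted p = 0.00192). Tgfa, transforming growth factor alpha, rose from 3.86 and 2.55 to 9.48 and 8.79 (log2 fold change 1.504 ± 0.18, adjusted p = 0.00586). Areg, amphiregulin, had 0 and 2 reads in normal liver and measured 1.904 and 2.41 FPKM in tumour (at least 4.63-fold higher in the male, ratio 25.9, interval 6.82 to 219 in the female, adjusted p = 0.0102). Hbegf, heparin-binding EGF-like growth factor, rose from 0.422 and 0.453 to 3.15 and 2.4003 (log2 fold change 2.65 ± 0.47, adjusted p = 0.0159). Precancerous liver held 0.478 and 0.508 FPKM of Btc, 3.02 and 3.02 of Tgfa and 0.428 and 1.12 of Hbegf, below both tumours for each. Egfr measured 76.2 FPKM in normal and 38.7 in tumour of males, and 18.3 and 31.4 in females (adjusted p = 0.882). Among other growth factor genes, Pdgfb, a ligand for mesenchymal cells, was called higher (0.286 and 0.796 to 3.73 and 4.91 FPKM). Fgfr4, the hepatocyte receptor for the intestinal bile acid signal, was called lower (9.36 and 14.5 to 4.25 and 8.39 FPKM, log2 fold change -0.98 ± 0.15, adjusted p = 0.0113). In all, 8 of 16 genes of this list were higher and 3 lower, and 2 of the 8 had passed the filter through the tumour libraries alone.

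Cell cycle transcripts were scarce in all 6 libraries, and most of those tested rose in tumour. Of 22 mitosis genes, all were higher in tumour than in normal liver in both sexes, as were 22.0% of all genes of the table and 40.8% of those tested, but only 8 reached the filter, 6 of them through the tumour libraries alone, and 6 were called. Mki67, which marks cycling cells, measured 0.414 and 0.6296 FPKM in normal liver, 0.374 and 1.02 in precancerous liver and 2.54 and 3.29 in tumour (log2 fold change 2.48 ± 0.28, adjusted p = 0.00547). Of 15 tested replication genes 8 were higher and 0 lower, and 4 of the 8 had passed the filter through the tumour libraries alone. Ccne1, cyclin E1, which drives entry into DNA synthesis, rose from 0.222 and 0.211 to 9.27 and 7.57 (log2 fold change 5.198 ± 0.19, adjusted p = 0.00192). Mcm2, a subunit of the replicative helicase, rose from 0.5403 and 0.373 to 1.87 and 2.07 (log2 fold change 2.11 ± 0.22, adjusted p = 0.00469). Pcna, the sliding clamp of DNA polymerase, measured 6.56 and 5.79 FPKM in normal and 7.6004 and 6.14 in tumour liver (adjusted p = 0.496).

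Inhibitors of the cell cycle rose alongside. Of 23 CDK inhibitor and p53 target genes 14 were called higher and 1 lower, and 2 of the 14 had passed the filter through the tumour libraries alone. Cdkn2b, which encodes the CDK4 and CDK6 inhibitor p15 (chr4:89306289-89311032), measured 0.239 and 0.325 FPKM in normal liver, 1.04 and 1.81 in precancerous liver and 26.7 and 21.3 in tumour (log2 fold change 6.31 ± 0.35, adjusted p = 0.00192; 2 reads in male normal liver, ratio 111, interval 30.5 to 925). Its neighbour Cdkn2a, which encodes p16 and p19ARF, rose from 0.119 and 0.604 to 7.65 and 10.7 (log2 fold change 4.75 ± 0.68, adjusted p = 0.00838; 1 read in male normal liver, ratio 64.5, interval 11.2 to 2579). Both tumours stood above all other libraries for both inhibitors. Btg2, an antiproliferative p53 target, was nearly equal between the sexes in every tissue: 2.74 and 2.77 FPKM in normal, 10.2 and 10.9 in precancerous and 62.2 and 59.7 in tumour liver (log2 fold change 4.44 ± 0.12, adjusted p = 0.00192). Phlda3, a p53 target that restrains AKT, rose from 0.2497 and 0.876 to 11.8 and 19.2 (log2 fold change 4.83 ± 0.31, adjusted p = 0.00222; 3 reads in male normal liver, ratio 47.3, interval 15.9 to 232). Cdkn1a, which encodes p21, rose from 3.36 and 2.71 to 18.995 and 31.6 (log2 fold change 2.903 ± 0.69, adjusted p = 0.0342). Trp53 itself rose from 1.92 and 3.78 to 3.33 and 4.999 (log2 fold change 0.56 ± 0.14, adjusted p = 0.0397, adjusted p = 0.0908 with 4 libraries). Sesn1 was the member called lower, with a log2 fold change of -0.75 (adjusted p = 0.0147, 0.0551 with 4 libraries).

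Genes of the NRF2 antioxidant response, which make and use glutathione and NADPH, rose together. Of 25 genes 17 were called higher and 0 lower, with a median log2 fold change of 1.3, and the fit to 4 libraries also called 17. Slc7a11, the cystine importer that feeds glutathione synthesis (chr3:49892526-50443614), measured 0.0106 and 0.0108 FPKM in normal liver and 33.6 and 30.9 in tumour (log2 fold change 12.21 ± 1.69, adjusted p = 0.00498; 1 and 3 normal reads, ratio 3163, interval 567 to 124953 in the male and ratio 2856, interval 977 to 13852 in the female). Cbr3, a carbonyl reductase, rose from 0.428 and 0.581 to 75.4 and 86.5 (log2 fold change 7.65 ± 1.18, adjusted p = 0.0102; 3 reads in male normal liver, ratio 176, interval 60.1 to 857). In male precancerous liver both stayed at the normal level, 0.0277 and 0.496 FPKM, whereas female precancerous liver held 1.28 and 10.8. Nqo1, the quinone reductase, rose from 3.33 and 9.96 to 53.9 and 66.4 (log2 fold change 3.395 ± 0.45, adjusted p = 0.00768). Gclc, the catalytic subunit of the enzyme that starts glutathione synthesis, rose from 103 and 61.7 to 331 and 358 (log2 fold change 2.05 ± 0.29, adjusted p = 0.00903). Gclm, its regulatory subunit, measured 31.8 and 20.4 FPKM in normal and 24.2 and 19.7 in tumour liver (adjusted p = 0.206). G6pdx, which supplies NADPH from glucose 6-phosphate, rose from 1.599 and 2.17 to 16.1 and 21.01 (log2 fold change 3.26 ± 0.16, adjusted p = 0.00192). The gene of NRF2, Nfe2l2, rose from 17.2 and 25.4 to 42.3 and 58.2 (log2 fold change 1.22 ± 0.103, adjusted p = 0.00312). Keap1, its inhibitor, measured 5.47 and 6.29 FPKM in normal and 5.63 and 6.74 in tumour liver (adjusted p = 0.824). Hmox1, heme oxygenase, also a target of NRF2, was not called (6.504 and 13.9 FPKM in normal and 5.75 and 12.7 in tumour liver, adjusted p = 0.493). The alpha and mu glutathione transferases are near-identical in sequence, so their levels are less certain: Gsta2 went from 22.1 and 37.3 to 137 and 223 FPKM, with 3.14 and 15.4 in precancerous liver.

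ATF4 is the transcription factor of the amino acid and endoplasmic reticulum stress response, and it binds the amino acid response element. Among its targets are genes of serine and asparagine synthesis. Of 16 tested genes of this list 12 were called higher and 1 lower (median log2 fold change 2.26); 4 of the 12 had passed the filter through the tumour libraries alone. The letters TGATGNAA of the element, searched on both strands in the 250 bases before the start site of each gene (RefSeq, GRCm38.p6), were found in 7 of 19 genes of the list with a promoter in the table (36.8%), against 1056 of all 27025 promoters (3.91%). It was in 1 of 21 promoters of the NRF2 list (4.76%) and 1 of 17 of the cholesterol synthesis list (5.88%). Of 2 other elements searched, the antioxidant response element (TGACNNNGC) was in 5 of 21 NRF2 promoters (23.8%), 4 of 19 ATF4 promoters (21.1%) and 3 of 17 cholesterol synthesis promoters (17.6%), against 11.5% of all. The sterol regulatory element (TCACNCCAC) was in 1 of 17 cholesterol synthesis promoters (5.88%) and 0 of the others, against 1.22% of all. The lists were made of known genes of each response, so these shares may follow from that choice. They count every member with a promoter, whether or not it changed. Of the 13 called ATF4 list members 4 held the amino acid response element. The other members with it, Chac1, Vldlr and Pycr1, were not called, and Pycr1 had not reached the filter. The element was thus not confined to members that rose. Only the promoters of the 4 called genes are shown, because the data place these 4 among those that rose together. Capitals mark the element, which reads TTGCATCA where it lies on the reverse strand, and each runs 5′ to 3′ up to the base before the start site.
Atf3, chr1:191183334-191183583, minus strand: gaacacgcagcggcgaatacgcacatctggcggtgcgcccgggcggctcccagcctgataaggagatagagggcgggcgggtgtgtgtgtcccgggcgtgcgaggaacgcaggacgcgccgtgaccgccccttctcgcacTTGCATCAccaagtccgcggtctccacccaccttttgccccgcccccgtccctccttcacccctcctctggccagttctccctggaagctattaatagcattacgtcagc
Asns, chr6:7693210-7693459, minus strand: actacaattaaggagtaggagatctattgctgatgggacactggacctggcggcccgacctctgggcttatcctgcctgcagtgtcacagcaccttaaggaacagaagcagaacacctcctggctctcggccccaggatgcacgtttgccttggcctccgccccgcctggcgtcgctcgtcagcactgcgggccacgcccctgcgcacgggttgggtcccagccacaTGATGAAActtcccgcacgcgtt
Nupr1, chr7:126625471-126625720, minus strand: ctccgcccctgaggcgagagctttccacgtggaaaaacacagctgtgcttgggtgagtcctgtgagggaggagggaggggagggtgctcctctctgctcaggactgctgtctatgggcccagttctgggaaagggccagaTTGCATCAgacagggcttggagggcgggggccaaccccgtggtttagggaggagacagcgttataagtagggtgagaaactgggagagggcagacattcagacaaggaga
Fgf21, chr7:45615491-45615740, minus strand: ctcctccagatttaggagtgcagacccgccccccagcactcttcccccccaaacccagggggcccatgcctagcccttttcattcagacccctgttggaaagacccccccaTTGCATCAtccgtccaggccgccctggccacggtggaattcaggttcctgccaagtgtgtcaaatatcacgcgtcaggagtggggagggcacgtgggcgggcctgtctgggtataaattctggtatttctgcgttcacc
The element began 110 bases before the start in Atf3 and in Nupr1, 23 in Asns and 139 in Fgf21. A match to these letters is a description of the window and shows no binding.

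Atf3, a stress-induced transcription factor, measured 0.521 and 0.354 FPKM in normal liver, 1.08 and 1.11 in precancerous liver and 3.98 and 4.44 in tumour (log2 fold change 3.29 ± 0.26, adjusted p = 0.00294). Asns, asparagine synthetase, measured 1.11 and 0.181 FPKM in normal and 6.28 and 7.77 in tumour liver (log2 fold change 3.88 ± 0.74, adjusted p = 0.0196, adjusted p = 0.0527 with 4 libraries). Nupr1, a stress-induced chromatin protein, rose from 0.0981 and 0.267 to 1.09 and 1.22 (log2 fold change 2.601 ± 0.36, adjusted p = 0.00859; 3 reads in male normal liver, ratio 11.2, interval 3.56 to 56.3). Fgf21, a liver hormone of fasting and stress, measured 0.538 and 4.02 in normal liver, 0.312 and 2.43 in precancerous liver and 10.8 and 21.6 in tumour (log2 fold change 3.11 ± 0.502, adjusted p = 0.0127; 3 reads in male normal liver, ratio 20.1, interval 6.63 to 99.8). All 4 genes were above the normal and the precancerous library of the same sex in each tumour, and Fgf21 was lower in precancerous than in normal liver in both sexes. For Fgf21, precancerous against normal liver did not pass the same edgeR test (adjusted p = 0.568). Serine synthesis rose along its whole path: Phgdh from 0.0582 and 0.257 to 1.23 and 1.83, Psat1 from 0.0719 and 0.0977 to 10.97 and 8.72 and Psph from 1.22 and 0.4496 to 3.75 and 2.33 FPKM (log2 fold changes 3.17, 6.97 and 1.95, adjusted p = 0.00609, 0.00602 and 0.00728). Male normal liver held 1 read of Phgdh (ratio 21.2, interval 3.49 to 870.01) and 3 of Psat1 (ratio 153, interval 51.96 to 742). Shmt2, the mitochondrial enzyme that takes serine into the folate cycle, was the member called lower (76.3 and 136 to 42.04 and 56.8 FPKM, log2 fold change -1.09 ± 0.14, adjusted p = 0.00684). Of 18 chaperones of the endoplasmic reticulum 4 were called higher and 2 lower, about the 31.9% of all genes tested, and 1 and 1 with 4 libraries. Hspa5, the chaperone BiP, measured 173 and 86.4 in normal liver and 273 and 154 in tumour (log2 fold change 0.72 ± 0.18, adjusted p = 0.0389, adjusted p = 0.107 with 4 libraries).

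Bile acid synthesis and uptake genes fell. Of 21 genes 14 were called lower and 3 higher, with a median log2 fold change of -2.06. Cyp8b1, the sterol 12-hydroxylase needed for cholic acid (chr9:121914356-121916305), fell from 132 and 121 FPKM in normal liver to 2.303 and 4.12 in tumour, and was at 10.5 and 17.7 in precancerous liver (log2 fold change -5.39 ± 0.31, adjusted p = 0.00196). Cyp27a1, the mitochondrial sterol 27-hydroxylase, fell from 133 and 150.4 to 19.5 and 24.8 (log2 fold change -2.72 ± 0.13, adjusted p = 0.00192). Cyp7a1, the rate-limiting enzyme of the classical pathway, measured 17.9, 57.6 and 10.6 FPKM in normal, precancerous and tumour liver of males and 47.6, 69.9 and 1.196 in females, and was not called (adjusted p = 0.150). Slc10a1, the sodium-dependent bile acid importer NTCP, fell from 309.7 and 423 to 53.8 and 84.2 (log2 fold change -2.45 ± 0.19, adjusted p = 0.00281). Abcb11, the bile salt export pump, fell from 145 and 79.9 to 33.6 and 26.5 (log2 fold change -1.89 ± 0.196, adjusted p = 0.00448). The 3 members called higher, Abcc2, Abcc3 and Abcc4, are efflux pumps of the ABCC family. Abcc4, which exports bile acids back to the blood, rose from 0.408 and 2.03 to 15.1 and 28.3 (log2 fold change 4.51 ± 0.497, adjusted p = 0.00515). The calls of Abcc2 and Abcc3 were lost with 4 libraries (adjusted p = 0.101 and 0.0910).

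Genes of the urea cycle and of amino acid breakdown fell. Of 31 genes 21 were called lower and 0 higher, and 30 were lower in the tumour of both sexes, against 34.8% of all genes tested. Ass1, argininosuccinate synthase of the urea cycle (chr2:31470207-31520672), fell from 409 and 791 to 60.3 and 149 FPKM (log2 fold change -2.598 ± 0.298, adjusted p = 0.00560). Otc, ornithine transcarbamylase, fell from 134 and 115 to 36.4 and 16.3 (log2 fold change -2.36 ± 0.28, adjusted p = 0.00590). Arg1, the last enzyme of the cycle, measured 904 and 893 FPKM in normal and 673 and 822 in tumour liver (adjusted p = 0.319). Hpd, an enzyme of tyrosine breakdown, fell from 515 and 804 to 54.5 and 78.4 (log2 fold change -3.33 ± 0.25, adjusted p = 0.00277). Prodh, proline dehydrogenase, fell from 34.9 and 44.7 to 5.26 and 2.13 (log2 fold change -3.55 ± 0.45, adjusted p = 0.00706). Bhmt, which remethylates homocysteine with betaine (chr13:93616891-93637961), fell from 293 and 243 to 22.5 and 22.2 (log2 fold change -3.61 ± 0.21, adjusted p = 0.00194). Its pseudogene Bhmt-ps1 went from 60.8 and 79.8 to 4.67 and 7.31 FPKM, the same ratio as Bhmt, and reads of this near-identical copy may not be separable from those of Bhmt.

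Mitochondrial energy genes were lower. Of 26 nuclear genes of the respiratory chain 20 were called lower and 0 higher, all 26 were lower in both tumours (34.8% of all genes tested were), and the median log2 fold change was -0.76. Sdha, the flavoprotein subunit of succinate dehydrogenase, fell from 101 and 85.9 to 50.9 and 38.8 FPKM (log2 fold change -1.097 ± 0.13, adjusted p = 0.00578). Cyc1, cytochrome c1 of complex III, fell from 109 and 125 to 62.6 and 59.1 (log2 fold change -0.98 ± 0.12, adjusted p = 0.00658). The mitochondrially encoded mt-Nd4 took 1.18% and 0.875% of all counts in male and female normal liver and 0.406% and 0.454% in the tumours. Of 24 genes of PPARA and fatty acid oxidation 16 were called lower, 10 with 4 libraries, and 0 higher. Etfdh, which passes electrons from fatty acid oxidation to the respiratory chain, fell from 31.6 and 30.1 to 9.32 and 8.63 (log2 fold change -1.81 ± 0.11, adjusted p = 0.00222). The receptor gene Ppara measured 16.2 and 18.5 FPKM in normal and 19.7 and 18.2 in tumour liver and was not called (adjusted p = 0.570). Nor was Cpt1a, which admits fatty acids to mitochondria, with 80.2 and 139 FPKM in normal and 120.2 and 161 in tumour liver (adjusted p = 0.132).

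Drug-metabolising P450s of normal liver fell while Cyp2a genes were high in tumour. Of 33 xenobiotic genes 18 were called lower, 12 with 4 libraries, and 0 higher. Cyp2c29 (chr19:39269405-39330713), an epoxygenase of the Cyp2c family, fell from 594 and 290.1 to 28.3 and 19.2 FPKM (log2 fold change -4.19 ± 0.22, adjusted p = 0.00192). Cyp2e1, the ethanol-inducible P450 of pericentral hepatocytes, measured 3425 and 4693 FPKM in normal liver, 2914 and 4334 in precancerous liver and 517 and 144 in tumour (log2 fold change -3.74 ± 0.76, adjusted p = 0.0233), so that precancerous liver lay near normal in both sexes. Aox3, an aldehyde oxidase, fell from 177 and 45.7 to 2.37 and 1.603 (log2 fold change -5.64 ± 0.54, adjusted p = 0.00386) and was at 3.59 and 3.35 FPKM in precancerous liver, close to the tumours. Cyp2a5 rose from 183 and 473 to 1315 and 1309 (log2 fold change 2.16 ± 0.42, adjusted p = 0.0198, adjusted p = 0.0556 with 4 libraries). Cyp2a4, a testosterone hydroxylase that is nearly identical to Cyp2a5 and cannot be cleanly separated from it, measured 0.9595 FPKM in male and 434 in female normal liver but 4678 and 4556 in the tumours (adjusted p = 0.0939). Pericentral genes as a list were mixed: 9 of 24 were lower and 2 higher. Glul, glutamine synthetase, a WNT target at the central vein, measured 304 and 205 FPKM in male normal and tumour liver and 389.6 and 44.5 in the female (adjusted p = 0.138). Axin2, another WNT target, measured 0.892 and 0.839 in the male and 1.41 and 0.246 in the female (adjusted p = 0.238).

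Some fat synthesis and storage genes rose. Of 24 genes 8 were higher and 1, the lipid droplet gene Plin4, lower, against 16.5% higher and 15.4% lower of all genes tested. The share of this list called in either direction was near the 31.9% of all genes tested. Of the 8, 2 had passed the filter through the tumour libraries alone, and the 1 lower through the normal libraries alone. Scd2, a desaturase isoform that adult hepatocytes hardly express (chr19:44293676-44306864), rose from 2.29 and 1.77 to 129 and 109 FPKM (log2 fold change 5.84 ± 0.36, adjusted p = 0.00217). Scd1, the main liver isoform, measured 1079.8 and 1332 in normal liver, 3637 and 2379 in precancerous liver and 2195 and 2142 in tumour (adjusted p = 0.276). Pnpla5, a patatin-like lipase, rose from 0 and 0.0669 to 34.1 and 39.7 (at least 115-fold in the male against 3 reads, adjusted p = 0.00192). Cidec, a lipid droplet protein, rose from 0.408 and 0.121 to 3.501 and 3.704 (log2 fold change 4.002 ± 0.48, adjusted p = 0.00634). Fasn and Acly, which make palmitate and its acetyl-CoA, were not called (adjusted p = 0.200 and 0.250).

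In cholesterol synthesis, precancerous liver lay outside the range of normal and tumour liver for the genes named here, with 1 library for each tissue and sex. Of 24 genes only 3 were called higher and 4 lower in tumour against normal liver, a share near the background, with a median log2 fold change of -0.18, but the median of precancerous against normal liver was -1.28. Hmgcs1, which makes the HMG-CoA that enters the pathway, measured 228, 26.3 and 209 FPKM in normal, precancerous and tumour liver of males and 235, 42.5 and 145 in females. Cyp51, the lanosterol demethylase, gave 58.2, 8.64 and 54.4 FPKM in males and 45.2, 10.7 and 39.8 in females. In both genes tumour liver was nearer to normal than to precancerous liver, and neither was called in tumour against normal liver (adjusted p = 0.328 and 0.565). Idi1, the isomerase of isopentenyl diphosphate, was called lower: 97.6, 7.197 and 40.9 FPKM in males, 54.1, 8.53 and 20.6 in females (log2 fold change -1.35 ± 0.31, adjusted p = 0.0319). Sqle and Lss, which make and close squalene epoxide, were called higher, Sqle with 14.5, 5.17 and 36.5 FPKM in males and 15.6, 5.62 and 33.8 in females (log2 fold change 1.197 ± 0.11, adjusted p = 0.00375), so that tumour stood above normal and precancerous liver below it. Among the called members, 3 lay beyond tumour in precancerous liver and 2 beyond normal. Precancerous against normal liver did not pass the same edgeR test for Idi1, Sqle or Lss (adjusted p = 0.0747, 0.0543 and 0.187).

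Some glycolysis genes rose. Pkm, the pyruvate kinase of fetal and tumour tissue, rose from 6.03 and 9.85 to 29.6 and 46.1 FPKM (log2 fold change 2.23 ± 0.15, adjusted p = 0.00236). Pklr, the adult liver isoform, measured 28.8 and 53.9 FPKM in normal and 43.03 and 40.9 in tumour liver (adjusted p = 0.969). Hk2, a hexokinase of growing tissue, rose from 0.243 and 0.363 to 1.15 and 1.37 (log2 fold change 2.02 ± 0.21, adjusted p = 0.00433). In all 8 of 22 genes were higher and 1 lower, against 16.5% higher and 15.4% lower of all genes tested. Of the 8, 3 had passed the filter through the tumour libraries alone. The median log2 fold change of the list was 0.033. The gluconeogenic genes Pck1 and G6pc were called lower, Pck1 from 539.6 and 781 to 45.2 and 226 and G6pc from 213 and 183 to 11.9 and 48.1 FPKM (log2 fold changes -2.59 and -2.92, adjusted p = 0.0307 and 0.0289, or 0.0539 and 0.0524 with 4 libraries).

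Of 23 growth hormone and IGF genes, 8 were called lower and 4 higher, and for several that fell precancerous liver lay on the far side of normal. Growth hormone acts on the liver through its receptor and STAT5 to induce IGF1 and sets the sex pattern of many liver genes. Ghr, the receptor, fell from 57.001 and 38.9 to 11.9 and 7.28 FPKM (log2 fold change -2.37 ± 0.15, adjusted p = 0.00222). Stat5b fell from 11.2 and 13.8 to 6.64 and 7.97 (log2 fold change -0.803 ± 0.14, adjusted p = 0.0142). Igf1 measured 26.3, 34.2 and 4.898 FPKM in normal, precancerous and tumour liver of males and 29.1, 36.5 and 3.01 in females (log2 fold change -2.87 ± 0.25, adjusted p = 0.00333). Igfals, which holds IGF1 in its circulating complex, gave 36.6, 49.97 and 2.19 FPKM in males and 68.3, 78.5 and 7.53 in females (log2 fold change -3.58 ± 0.32, adjusted p = 0.00347). For both genes the tumours were the lowest libraries and each precancerous library was above the normal library of its sex. Precancerous against normal liver did not pass the same edgeR test for Igf1 or Igfals (adjusted p = 0.531 and 0.619). Igfbp1, an IGF-binding protein that hepatocytes secrete in fasting and stress (chr11:7197782-7202546), rose from 21.7 and 63.1 to 1326 and 2101 (log2 fold change 5.47 ± 0.31, adjusted p = 0.00193). Lepr, the leptin receptor, rose from 0.412 and 0.603 to 12.7 and 16.1 and was at 10.4 and 6.97 in precancerous liver (log2 fold change 4.77 ± 0.35, adjusted p = 0.00268).

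Genes with a male or female pattern differed less between the sexes in tumour. The 29 genes of this list differed at least 8-fold between the male and the female normal library, and 18 of them did so between the precancerous libraries and 3 between the tumours. The median size of the male and female difference on the log2(FPKM + 1) scale was 6.96 in normal liver, 4.01 in precancerous liver and 0.79 in tumour, against 0.33, 0.29 and 0.29 over all genes tested. The list was made of genes that differ by sex in normal liver, with results of these data known, so its normal value is set by the choice, and with 1 library for each sex and tissue there is no test. Among male genes, Elovl3, a fatty acid elongase, measured 357, 6.02 and 0.182 FPKM in normal, precancerous and tumour liver of males. Mup7, a major urinary protein, measured 8097, 1804 and 19.97 FPKM. In females the same genes started at 2.39 and 1.06 FPKM and were at 0 and 0.0317 in tumour. Among female genes, A1bg, an immunoglobulin-domain plasma protein, measured 366, 334 and 0.625 FPKM in normal, precancerous and tumour liver of females and 0, 0.637 and 0 in males. Sult2a1, a steroid sulfotransferase, measured 143, 55.4 and 4.47 in females. Tumour against normal liver called 10 of the 29 lower and 0 higher. Cyp2b9, female in normal liver (0.444 FPKM in the male, 381 in the female), was 162 and 159 in the tumours and was not called (adjusted p = 0.717). Mup, Cyp2b, Cyp3a and Sult2a genes belong to families of near-identical copies, so reads may be split among members.

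**Figure D4:**
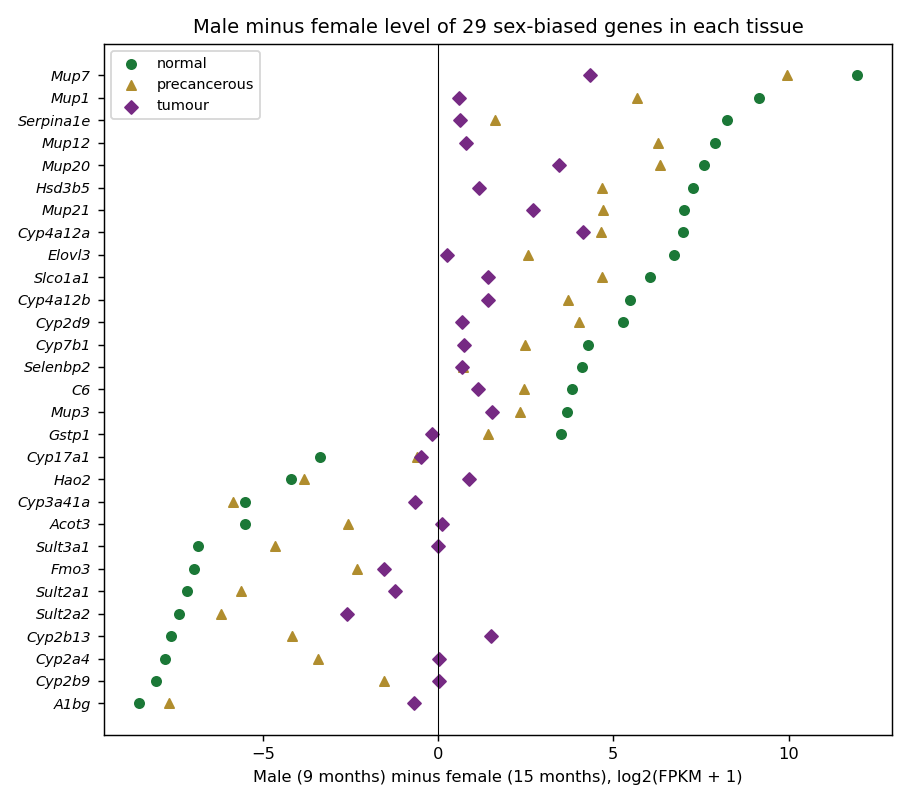
Male minus female difference on the log2(FPKM + 1) scale for 29 sex-biased genes in normal (green circles), precancerous (brown triangles) and tumour liver (purple diamonds), 1 library per sex and tissue, ordered by the difference in normal liver. Normal liver spans the widest range for most genes, and the tumour values gather near 0, with a median size of 0.79 against 6.96 in normal liver.

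Plasma protein genes were mixed. Of 38 genes 4 were called higher and 10 lower, and 0 and 5 with 4 libraries. Of all genes tested 16.5% were called higher and 15.4% lower. The share of the list called in either direction was near the 31.9% of all genes tested. Alb, the most abundant transcript, took 5.74% and 9.07% of counts in male and female normal liver, 9.55% and 10.5% in precancerous liver and 13.7% and 14.0% in tumour. Trf, transferrin, took 1.18% and 1.31% in normal liver and 3.51% and 3.50% in tumour. Neither gene's values overlapped, yet the test called neither (Alb log2 fold change 0.899 ± 1.74, adjusted p = 0.732; Trf log2 fold change 1.46 ± 0.72, adjusted p = 0.186). The log2 fold changes of both stayed close under other tests, which gave adjusted p of 0.0705 for Alb and 0.0078 for Trf with edgeR's older quasi-likelihood estimate, 0.000645 and 9.1e-25 with DESeq2, and 0.113 and 0.011 with limma on log2(FPKM + 1). Mbl1, a mannose-binding lectin, was called lower (213 and 99.7 to 39.7 and 23.9 FPKM, log2 fold change -2.27 ± 0.14, adjusted p = 0.00212). Hamp, hepcidin, the hormone that blocks iron export (chr7:30942368-30944032), fell from 1079 and 1984 to 52.5 and 36.6 (log2 fold change -4.96 ± 0.703, adjusted p = 0.00919). Apcs, serum amyloid P, rose from 127 and 93.6 to 529 and 404 (log2 fold change 2.05 ± 0.19, adjusted p = 0.00368). Crp, C-reactive protein, fell from 157 and 86.2 to 49.4 and 30.8 (log2 fold change -1.61 ± 0.13, adjusted p = 0.00297). Saa1 and Saa2 moved in opposite directions in the sexes, from the high level of the male normal library.

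Some hepatocyte transcription factors fell. Of 25 genes 10 were called lower and 2 higher, and 7 and 1 with 4 libraries, against 15.4% lower and 16.5% higher of all genes tested. Hnf4a, the central hepatocyte regulator, measured 94.3 and 77.97 FPKM in normal liver and 83.7 and 82.2 in tumour (adjusted p = 0.724). Nr1h4, which encodes the bile acid receptor FXR, fell from 29.01 and 37.6 to 17.6 and 15.6 (log2 fold change -1.03 ± 0.17, adjusted p = 0.0134) while precancerous liver was above normal at 46.3 and 43.2. Klf15, a regulator of amino acid breakdown, fell from 31.4 and 38.5 to 10.03 and 14.8 (log2 fold change -1.54 ± 0.13, adjusted p = 0.00297). Foxa3, a pioneer factor, rose from 19.6 and 17.5 to 32.7 and 32.7 (log2 fold change 0.795 ± 0.12, adjusted p = 0.00972). Prox1 was highest in precancerous liver (7.704 and 7.75 FPKM in normal, 15.98 and 14.3 in precancerous and 11.6 and 10.4 in tumour liver; log2 fold change 0.48 ± 0.11, adjusted p = 0.0323; adjusted p = 0.0793 with 4 libraries). Ribosomal protein genes rose slightly, 10 of 25 called higher with a median log2 fold change of 0.38, but only 1 with 4 libraries. Of 27 proteasome genes 2 were called lower and 0 higher. Rps3a1, a ribosomal protein gene with many processed copies (chr3:86137940-86142702), was not in the ribosomal list and was called lower: 85.9, 1.63 and 2.79 FPKM in normal, precancerous and tumour liver of males and 79.1, 2.52 and 3.72 in females (log2 fold change -4.702 ± 0.22, adjusted p = 0.00192).

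Markers of non-hepatocyte cells changed in both directions. In bulk tissue, fewer cells of a type and less RNA per cell cannot be told apart. Of 15 tested Kupffer cell markers 8 were called lower, 0 higher and 7 not called, against 15.4% lower of all genes tested. All 8 were highest in precancerous liver in both sexes, as were 11.9% of all genes called lower. Timd4, a receptor for dying cells on resident macrophages, measured 4.53, 6.08 and 0.376 FPKM in normal, precancerous and tumour liver of males and 5.68, 7.65 and 0.524 in females (log2 fold change -3.51 ± 0.18, adjusted p = 0.00192). Marco, a scavenger receptor, gave 5.88, 13.05 and 0.811 FPKM in males and 14.8, 30.01 and 1.24 in females (log2 fold change -3.29 ± 0.21, adjusted p = 0.00222). Precancerous against normal liver did not pass the same edgeR test for Timd4 or Marco (adjusted p = 0.296 and 0.132). Adgre1, the general macrophage marker F4/80, measured 6.56 and 6.903 in normal liver and 6.598 and 7.39 in tumour (adjusted p = 0.901), so the resident markers fell where the general one did not pass the test. Gpnmb, a gene of lipid-laden macrophages, rose from 0.06696 and 0.205 to 1.35 and 3.36 FPKM (log2 fold change 4.12 ± 0.23, adjusted p = 0.00192; 3 reads in male normal liver, ratio 20.1, interval 6.63 to 99.8). Of 9 tested markers of incoming monocytes and macrophages 5, Gpnmb among them, were called higher (3 with 4 libraries), 1 of these after passing the filter through the tumour libraries alone, and 1 lower. Cd9, a tetraspanin that other cell types also express, was among the higher (8.38 and 5.55 to 47.5 and 84.8 FPKM, log2 fold change 3.18 ± 0.38, adjusted p = 0.00602). All 15 markers summed to 186 and 317 FPKM in normal and 335 and 607 in tumour liver, of which Fn1, fibronectin, which hepatocytes also make, held 83.6 and 170.2 in normal and 192 and 395 in tumour liver. Ccr2 and Ly6c2, markers of blood monocytes, did not reach the filter. The summed level of the Kupffer list was 339 and 402 FPKM in male and female normal liver and 161 and 271 in tumour, with 453 and 554 in precancerous liver. Among its members C6, a complement gene that hepatocytes also express, measured 77.5 and 4.51 in normal liver.

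Of 18 stellate cell and matrix genes 11 were called higher and 3 lower, and 3 of the 11 had passed the filter through the tumour libraries alone. Acta2, smooth muscle actin of activated stellate cells, rose from 0.749 and 3.47 to 15.7 and 19.2 FPKM (log2 fold change 3.26 ± 0.47, adjusted p = 0.00972). Col1a1, the fibrillar collagen, rose from 0.361 and 1.397 to 3.69 and 7.995 (log2 fold change 2.91 ± 0.34, adjusted p = 0.00580). Lrat, the retinol esterifying enzyme of quiescent stellate cells, fell from 4.301 and 3.46 to 0.992 and 0.649 (log2 fold change -2.296 ± 0.17, adjusted p = 0.00268). The summed level of this list was 117 and 239 FPKM in normal and 175 and 266 in tumour liver. Among 17 endothelial markers 7 were lower, led by the sinusoidal genes Clec4g (18.2 and 21.6 to 5.27 and 4.97 FPKM, log2 fold change -1.99 ± 0.15, adjusted p = 0.00279) and Dnase1l3 (log2 fold change -1.76 ± 0.11, adjusted p = 0.00222). Another 4 were higher, 2 of which had passed the filter through the tumour libraries alone, among them Cd34, a marker of capillary endothelium (0.102 and 0.196 to 1.66 and 1.01, log2 fold change 3.03 ± 0.42, adjusted p = 0.00871), and Pecam1 (log2 fold change 0.92 ± 0.11, adjusted p = 0.00618). Of 6 tested bile duct markers 4 were higher, Spp1, Tspan8, Prom1 and Sox9, 1 of which had passed the filter through the tumour libraries alone, beside Krt7, Krt19, Cftr and Ggt1 that did not reach the filter. Spp1, osteopontin, rose from 9.499 and 10.3 to 115 and 129 (log2 fold change 3.59 ± 0.22, adjusted p = 0.00212). The summed level of all 13 bile duct markers was 15.9 and 17.5 FPKM in normal and 320.4 and 272 in tumour liver, most of it from Tspan8 and Spp1, and that of the other 11 was 5.80 and 6.76 in normal and 14.1 and 19.2 in tumour, a split chosen after the values were seen. T and NK cell, B cell and red cell markers gave no call among 6, 4 and 5 tested genes. Adipoq, Plin1 and Lep of fat cells and Prss1, Cpa1 and Pnlip of pancreatic acinar cells were at or near 0 in every library. Other members of these lists were expressed. Of the fat cell list 2 genes were tested, Fabp4 called higher and Car3 lower. Of the acinar list 1 gene was tested, Cela1, and it was not called. The acinar list summed to 29.3 and 7.54 FPKM in normal and 43.2 and 26.6 in tumour liver. Of 16 MHC and antigen presentation genes 5 were called higher and 0 lower, and 3 and 0 with 4 libraries, against 16.5% higher of all genes tested. Of class II genes, H2-Eb1 was called higher (14.6 and 49.1 to 64.4 and 75.7 FPKM, log2 fold change 1.35 ± 0.36, adjusted p = 0.0484, adjusted p = 0.0969 with 4 libraries). H2-Ab1 was also higher in the tumour of each sex but did not pass (6.73 and 34.1 FPKM in normal and 27.1 and 46.5 in tumour liver, adjusted p = 0.0708). Of 21 interferon response genes 8 were higher, 5 with 4 libraries, among them Cxcl9 (2.46 and 10.4 to 21.7 and 29.7 FPKM, log2 fold change 2.28 ± 0.4004, adjusted p = 0.0155). The part of these cell types in the hepatocyte results above was not tested.

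Precancerous liver lay between normal and tumour in both sexes for most called genes: 1175 of the 1887 higher (62.3%) and 1083 of the 1762 lower (61.5%), against 3517 of all 11435 genes tested (30.8%). It lay beyond tumour in both sexes for 16 of the genes higher (0.848%) and 25 of the genes lower (1.42%), against 893 of all genes (7.81%). It lay on the far side of normal for 171 higher (9.06%) and 210 lower (11.9%), against 1898 of all genes (16.6%). The shares of called genes are partly set by the call itself, which asks for a wide gap between normal and tumour. These positions are orders of levels in 1 library for each tissue and sex, with no test of their own. With a margin of at least 1.5-fold, 1 gene higher (Tnfsf10) and 3 lower (Idi1, Msmo1 and Gm37416) stayed beyond tumour. Beyond normal stayed 3 higher (Gsta2, Gsta4 and Sqle) and 9 lower, among them Orm3, Adam11 and Marco.

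Most of the distance from normal to tumour was not covered in precancerous liver. Precancerous liver and tumour were taken at the same age, so the way from normal to tumour is a scale of levels here and not a course in time. Among 599 genes called higher and at least 2-fold apart in both pairs, precancerous liver had gone a median of 13.2% of the way in males (quartiles 2.28% and 29.6%) and 20.9% in females (10.3% and 32.1%) on the log2(FPKM + 1) scale. Among 442 genes lower, it had gone 21.7% in males (3.08% and 42.6%) and 22.2% in females (8.60% and 36.6%). Of the 599, 106 had gone at most 10% in both sexes (17.7%), including Spp1, Asns, Cdh17 and Acta2, and of the 442 there were 78 (17.6%), including Cyp2e1, Slc10a1 and Prodh. Only 3 genes higher (0.501%) and 7 lower (1.58%) had gone at least 90%. Clca3a1, a chloride channel regulator, measured 1.502, 6.17 and 6.91 FPKM in normal, precancerous and tumour liver of males and 2.38, 10.1 and 10.04 in females (log2 fold change 2.11 ± 0.11, adjusted p = 0.00192), so that precancerous liver was at the tumour level. Sgk2, a serum and glucocorticoid-regulated kinase, gave 16.1, 3.57 and 4.03 FPKM in males and 14.2, 5.98 and 6.54 in females (log2 fold change -1.602 ± 0.26, adjusted p = 0.0128). Tnfsf10, the death ligand TRAIL, passed the tumours: 1.23, 11.998 and 4.42 FPKM in males and 1.48, 9.86 and 5.105 in females (log2 fold change 1.78 ± 0.19, adjusted p = 0.00494). Noct, a circadian phosphatase, had gone most of the way down, with 17.3, 2.17 and 0.921 FPKM in males and 27.9, 2.54 and 0.939 in females (log2 fold change -4.602 ± 0.21, adjusted p = 0.00192).

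On the far side of normal, Orm3, an orosomucoid, measured 6.904, 44.7 and 1.23 FPKM in males and 7.18, 24.7 and 1.26 in females (log2 fold change -2.498 ± 0.32, adjusted p = 0.00734). Nrep, a neuronal regeneration protein, gave 5.99, 12.9 and 2.36 FPKM in males and 5.97, 12.3 and 1.24 in females (log2 fold change -1.83 ± 0.26, adjusted p = 0.00935). Urad, an enzyme of uric acid breakdown, measured 35.5, 63.3 and 10.7 FPKM and 38.4, 58.5 and 12.8 (log2 fold change -1.68 ± 0.15, adjusted p = 0.00356). Each was highest in precancerous and lowest in tumour liver in both sexes. Precancerous against normal liver did not pass the same edgeR test for Orm3, Nrep or Urad (adjusted p = 0.0892, 0.187 and 0.157). Plin2, the main coat protein of lipid droplets, showed the opposite order, lowest in precancerous and highest in tumour liver: 55.6, 39.1 and 139 FPKM in males and 84.5, 64.9 and 153 in females (log2 fold change 1.06 ± 0.18, adjusted p = 0.0142). The clock gene Per2 was raised in precancerous and tumour liver alike (4.06 and 7.12 FPKM in normal, 16.6 and 15.9 in precancerous, 14.5 and 14 in tumour liver; log2 fold change 1.34 ± 0.26, adjusted p = 0.0193). The sources used here do not give the time of day of collection.

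**Figure D5:**
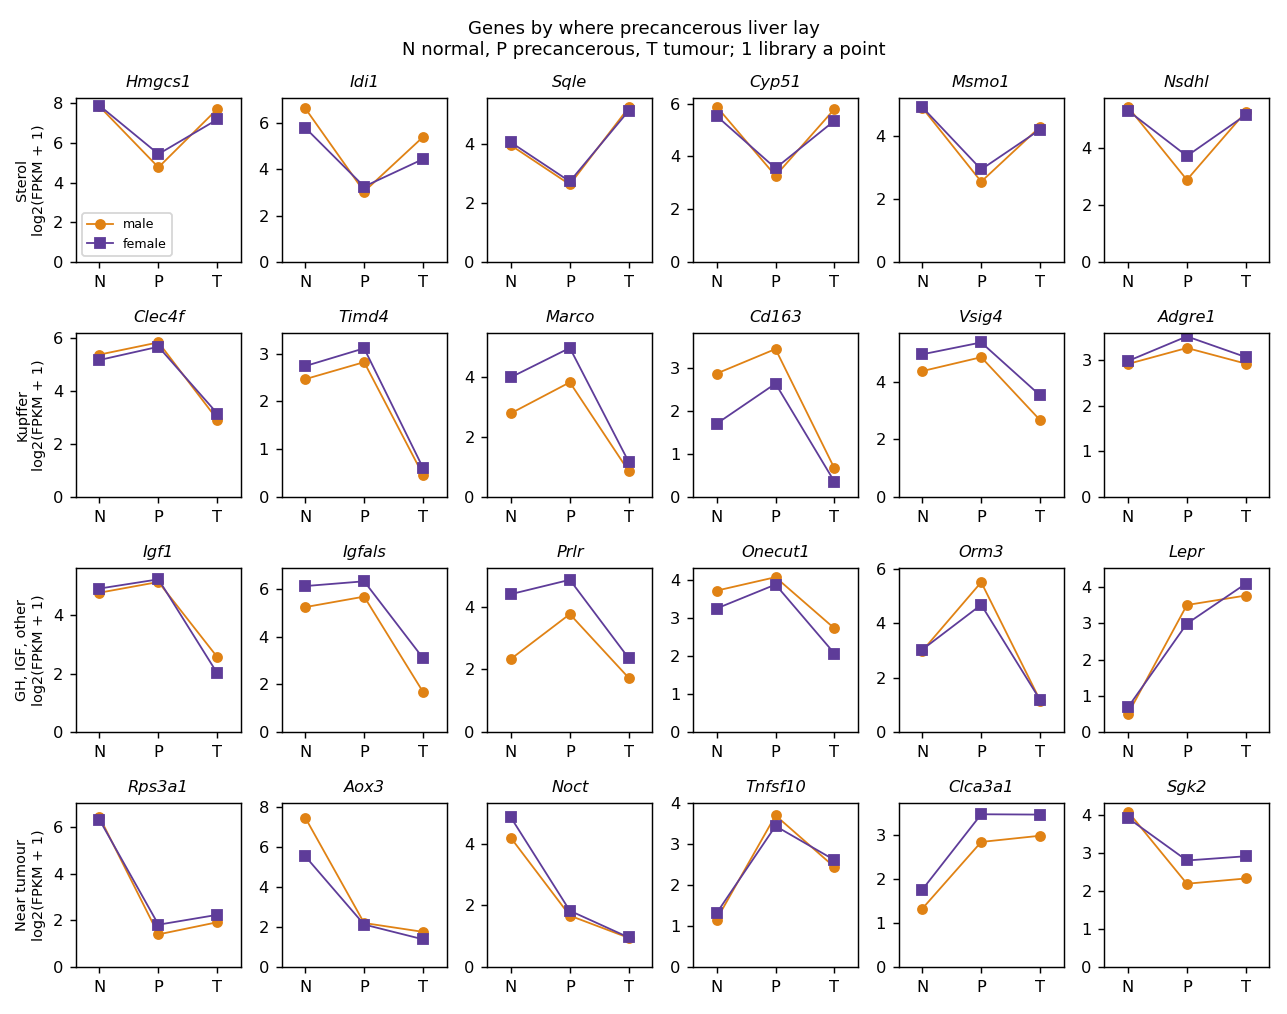
Level of 24 genes on the log2(FPKM + 1) scale in normal (N), precancerous (P) and tumour (T) liver, males as orange circles and females as purple squares, 1 library a point and each panel with its own axis starting at 0. Sterol genes dip in precancerous liver, Kupffer markers, Igf1, Igfals, Prlr, Onecut1 and Orm3 peak there, and the genes of the bottom row lie closer to tumour than to normal in precancerous liver or pass it.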

How the data were processed

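Poly(A) RNA of 6 mouse liver libraries, made with a stranded kit per the labels' protocols, was measured as counts and FPKM per gene. The counts are whole numbers that the authors deposited without normalization, and the deposited FPKM values are those counts per gene length and library total. The submitters' processing notes name TopHat2 2.0.9 and Cuffdiff with GRCm38 (mm10). The sources used here do not say how counting used strand. Each library was placed by its deposited tissue and sex labels, with the normal libraries as controls.

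Genes with at least 1 FPKM in at least 2 libraries were tested with edgeR 4.0.16 under R 4.3.3 on those counts: TMM scaling, sex and tissue as additive terms over 6 libraries, 2 residual degrees of freedom, and Benjamini-Hochberg adjustment over 11435 genes at 0.05. Alternatives used DESeq2 1.42.0, limma 3.58.1, other scalings and filters, 4 libraries, no block and each library left out. The fitting code was also run on simulated counts, and the outcome is not reported here and bears on no result above. At-least folds set a library without reads to 3 reads, and ratios on 1 to 3 reads carry exact 95% intervals, both for counting error only. Gene positions and names are those of the table (GRCm38). Promoters are from RefSeq (GRCm38.p6), matched by symbol. Named genes were, per direction, the 15 with the largest change shared by both sexes at 5 FPKM or more, the 8 farthest outside the range of normal and tumour in precancerous liver per class, and members of the gene lists; some are not reported here. The comparison, the lists and the rules were chosen with earlier results of these data known.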

Additional observations from a re-analysis of the deposited data

Results flagged for a closer look

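In 12 named genes the male and the female pair moved at least 2-fold in opposite directions between normal liver and tumour, and the difference between the sexes was not tested, since each sex has 1 library a tissue. Values are tumour minus normal on the log2(FPKM + 1) scale. Female-type genes rose in the male pair and fell in the female pair: Cyp2b13 by 3.62 and -5.49, Cyp2c69 by 2.52 and -6.05, Cyp3a44 by 2.64 and -3.19, Cyp3a16 by 2.12 and -2.37, and Cyp2c40 by 1.57 and -2.63, all P450s that hydroxylate steroids or fatty acids, and Serpina6, the corticosteroid-binding globulin, by 2.01 and -2.08. Male-type genes went the other way: the protease inhibitor Serpina1e by -2.99 and 4.64, the P450 Cyp2d9 by -2.22 and 2.36, the urinary proteins Mup20 by -1.55 and 2.57 and Mup21 by -2.23 and 2.07, and the pseudogene Mup-ps19 by -1.70 and 2.29. The acute phase gene Saa2 moved by -5.36 in males and 1.96 in females, and its male normal library held the high serum amyloid level given above. Most of these genes belong to families of near-identical copies, so reads may be split among members.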

How the results depend on the processing

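The 3649 calls fell to 2310 (1047 lower) with the 4 tumour and normal libraries alone, a fit with 1 residual degree of freedom, and to 847 (492 higher, 355 lower) without the sex block. No paired analysis was possible because each tissue and sex has 1 library and no label ties libraries to an animal; the block is sex with age. Leaving out 1 library gave 1785 to 2526 calls, 988 to 1290 higher and 797 to 1236 lower, fewest without normal female liver. DESeq2, limma, other scalings, filters and the older edgeR estimate stayed within 1.5 times. On log2(FPKM + 0.1) the 2-fold counts rose to 1453 higher in males, 1273 in females, 940 in both and 80 opposite. Precancerous liver lay at least 1.5-fold beyond tumour for 1 gene higher and 3 lower and beyond normal for 3 and 9. With no margin, calls of the 4-library fit gave 7 and 11 beyond tumour and 92 and 99 beyond normal. Of 243 named genes 202 kept their side of the threshold with 4 libraries, 109 without the block, 224 with DESeq2 and 171 to 198 with a library left out. With a library left out, the log2 fold change reversed in some uncalled genes that moved oppositely in the sexes. A reversal was recorded only where a fit with or without the library passed the threshold, so other changes of sign may exist. In the recorded genes the log2 fold change ran from -3.30 to 3.05 for Cyp3a44, -1.98 to 1.80 for Serpina6, -2.63 to 2.34 for Cyp2c40, -2.74 to 4.45 for Serpina1e, -2.003 to 2.04 for Cyp2d9 and -1.47 to 2.49 for Mup-ps19. The cause was not tested. Male libraries held fewer counts, so low genes are less precise there.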
